A study of Mus musculus with 8 samples.

Results

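The 42 genes described here encode the kinases, sensors, nucleases, polymerases and ligases that detect and mend damaged DNA. They were chosen by name, with earlier results of these data known, as genes of damage signalling, nucleotide excision, base excision, recombination, crosslink repair, end joining and translesion synthesis, and all 42 were found among the 25700 gene identifiers of the count tables. Messenger RNA was sequenced from brain endothelial cells of C57BL/6 mouse pups at postnatal day 6, which were sorted by flow cytometry and lysed without culture. The 4 knockout pups (labelled GLUT1EC-/-, here KO) carried, by label, an endothelial loss of the glucose transporter GLUT1, product of Slc2a1, and 4 pups were wild type (WT). The promoter or Cre line behind the deletion is not given in the sources used here. Each library came from 1 pup, so the p-values measure the spread between pups. In such bulk samples, fewer cells of a type and less RNA per cell cannot be told apart.

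Cells meet DNA lesions with several routes that share signals. Bulky and ultraviolet lesions are cut out as short oligonucleotides by nucleotide excision repair, damaged bases and nicks are replaced by base excision repair, and double-strand breaks are either rejoined end to end or copied from a sister chromatid. The kinases ATM and ATR report breaks and stalled forks to CHEK1, CHEK2 and p53, and p53 is known to raise transcription of a subset of repair genes together with genes of cell-cycle arrest and death. Of the 42 genes, 8 are recorded as p53-inducible in mouse or human cells: Ddb2, Xpc, Ercc5, Polh, Polk, Rrm2b, Zfp365 and Fancc. The comparison of genotypes asked which of the 42 differed when endothelial GLUT1 was lost.

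Total counts per library ran from 20858070 to 40833036 in KO pups and from 25886455 to 114007737 in WT pups, with WT pup 2 the deepest. Slc2a1 ran from 1386 to 1602 CPM among KO pups and from 2238 to 3726 CPM among WT pups, with no overlap (CPM, counts per 1000000 of the scaled library size). Its log2 fold change was -1.01 (SE 0.14, adjusted p 0.00619 in edgeR's quasi-likelihood test). The KO mean was 49.5% of the WT mean, so Slc2a1 transcript remained in the KO libraries, and whether its counts come from the deleted part of the gene was not tested. The defining endothelial markers were present in all pups, with Pecam1 at 1295 to 1469 CPM and Cdh5 at 1380 to 1715 CPM. Detected genes numbered 13624 in KO pup 1 and 15756 to 17082 elsewhere. Mitochondrial genes took 2.04 to 2.48% of counts in KO and 1.66 to 1.89% in WT, without overlap, and its part in the results was not tested. By the sample titles, the KO pups and WT pup 5 shared a cage and the other WT pups came from another. A second set of labels places WT pup 3 instead of WT pup 5 with the KO pups. These labels disagree with the titles on the cage or pup number of the 4 WT samples, which are numbered here by title. Genotype and cage were therefore nearly confounded.

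For 3 of the 42 genes, Zfp365, Ercc5 and Polk, all KO pups lay above all WT pups, against 3.77% of the 14154 tested genes. For 0 of the 42 they lay below, and 7.19% of all tested genes were apart in either direction. A count of 3 of 42 is near that share. Promoter windows of Zfp365, Ercc5 and Polk are shown because these are the genes whose groups did not overlap. Each runs from 250 bases before to 50 bases after a RefSeq transcription start (GRCm38.p6, read on the gene's own strand). Of 3 windows of Lig1, the replicative ligase, 1 is shown beside them as an example of an E2F match, and the other two Lig1 windows held none. Capitals mark a match to the p53 half-site consensus in Polk, the CCAAT box in Ercc5 and an E2F motif in Lig1, on either strand. Zfp365 and the upstream Polk window have no capitals because neither held a p53 half-site.
Ercc5, chr1:44147494-44147793, plus strand: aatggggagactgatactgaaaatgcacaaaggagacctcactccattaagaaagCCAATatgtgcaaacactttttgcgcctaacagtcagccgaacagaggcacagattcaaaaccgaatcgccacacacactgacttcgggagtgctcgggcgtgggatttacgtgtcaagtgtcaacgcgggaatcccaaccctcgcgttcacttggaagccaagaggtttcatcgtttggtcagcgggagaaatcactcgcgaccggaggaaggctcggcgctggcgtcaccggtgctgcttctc
Polk, upstream start, chr13:96542530-96542829, minus strand: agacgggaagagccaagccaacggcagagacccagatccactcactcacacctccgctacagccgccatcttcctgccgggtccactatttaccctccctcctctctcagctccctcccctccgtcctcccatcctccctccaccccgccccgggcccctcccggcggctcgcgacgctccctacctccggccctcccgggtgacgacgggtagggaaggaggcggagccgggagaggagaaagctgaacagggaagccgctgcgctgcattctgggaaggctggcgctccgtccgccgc
Polk, internal start, chr13:96519138-96519437, minus strand: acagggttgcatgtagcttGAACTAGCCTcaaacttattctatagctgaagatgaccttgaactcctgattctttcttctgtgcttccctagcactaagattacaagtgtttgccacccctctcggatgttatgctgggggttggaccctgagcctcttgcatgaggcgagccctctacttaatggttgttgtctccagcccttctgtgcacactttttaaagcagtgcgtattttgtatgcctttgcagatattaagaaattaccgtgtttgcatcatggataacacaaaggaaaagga
Zfp365, chr10:67912613-67912912, minus strand: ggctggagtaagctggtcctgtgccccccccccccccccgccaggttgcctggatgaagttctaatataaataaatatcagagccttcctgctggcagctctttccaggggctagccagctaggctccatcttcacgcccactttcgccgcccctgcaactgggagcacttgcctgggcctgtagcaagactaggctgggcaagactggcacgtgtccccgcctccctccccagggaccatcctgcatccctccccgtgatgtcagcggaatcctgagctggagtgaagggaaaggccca
Lig1, chr7:13278576-13278875, plus strand: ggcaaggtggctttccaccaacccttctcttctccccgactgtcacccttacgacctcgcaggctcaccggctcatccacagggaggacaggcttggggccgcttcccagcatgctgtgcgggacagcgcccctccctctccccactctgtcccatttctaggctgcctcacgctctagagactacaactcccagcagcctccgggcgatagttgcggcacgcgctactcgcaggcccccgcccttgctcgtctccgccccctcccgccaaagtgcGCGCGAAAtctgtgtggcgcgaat

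Windows were found for 33 of the 42 genes, the others being Fancd2, Ddb2, Prkdc, Ercc3, H2afx, Rrm2b, Rad50, Nbn and Xpc. The half-site in Polk begins 231 bases before an internal start and lies outside the window of the upstream start. A p53 half-site was present in windows of 2 of the 33 genes (Polk and Fanca) and in 8.36% of all 32851 windows, and a full site of 2 half-sites up to 13 bases apart was present in 0 of the 33 and in 0.0731% of windows. The E2F motif was searched as TTTCCCGC, TTTCGCGC, TTTGCCGC and TTTGGCGC and was present for 6 of 33 genes (Brca2, Chek2, Lig1, Mdc1, Msh6 and Xrcc6), against 2.26% of windows. CCAAT was present for 18 of 33 genes and in 37.4% of windows, with no match in Lig1. Genes with several windows had more chances of a match. A match or its lack describes these letters only.

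Of the 42 genes, 2 rose in KO pups and 0 fell, against 0.276% of the 14154 tested genes called higher, 0.113% called lower and 0.389% called in either direction. All 42 passed the filter on low counts. No member was called lower by edgeR, DESeq2 or limma-voom, and 0 were lower at an unadjusted p under 0.05 in edgeR, while 5 were higher (Zfp365, Ercc5, Polk, Atr and Fancd2), against 5.52% of all tested genes higher, 5.61% lower and 11.1% in either direction at that level. For 3 genes every KO pup lay above every WT pup, against 3.77% of all tested genes, and for 0 the KO pups lay below, against 3.43% (7.19% in either direction). Taken over either direction, the counts of 5 and 3 of 42 are near the shares of all tested genes. The median log2 fold change of the 42 was 0.004, beside 0.002 over all genes, with 21 values above 0 and 21 below (50.3% of all tested genes were above 0). Apart from Zfp365, the fold changes ran from -0.24 (Ercc1) to 0.64 (Ercc5), and 33 of the 42 lay within 0.25 of zero. The 95% interval lay within 0.5 of zero for 25 genes.

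**Figure D1:**
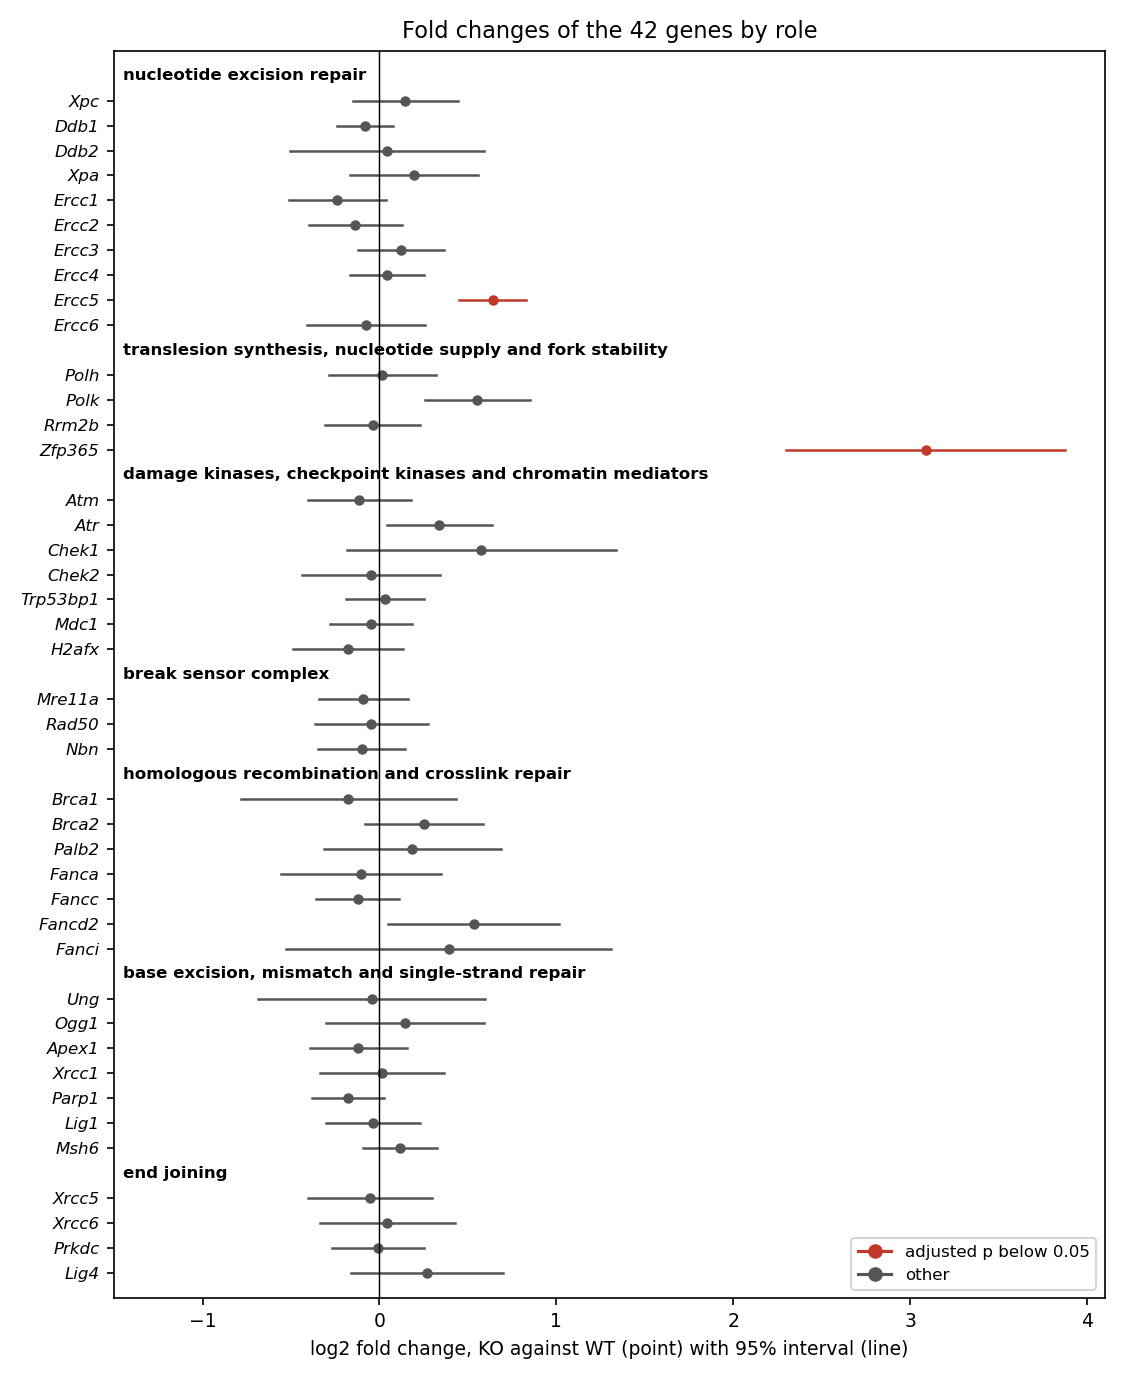
Log2 fold change of each of the 42 genes, KO against WT (horizontal axis), with its 95% interval from edgeR, ordered by role. Zfp365 at 3.09 and Ercc5 at 0.64 are the 2 genes in red, whose adjusted p lies below 0.05, and 33 genes lie within 0.25 of zero.

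Zfp365 showed the largest difference of the 42. It encodes a zinc finger protein, the counterpart of human ZNF365, described as a p53 target that helps stalled replication forks recover. The gene (ENSMUSG00000037855; GRCm38 chromosome 10, 67886103 to 67912662, minus strand) measured 17.5, 7.67, 9.52 and 9.17 CPM in KO pups 1 to 4. WT pups 1, 2, 3 and 5 measured 1.26, 0.700, 1.71 and 1.58 CPM. The lowest KO pup stood well above the highest WT pup, and KO pup 1 was the highest of all. The counts behind these levels were 185 to 384 in KO and 40 to 78 in WT. Its means were 10.97 ± 4.44 CPM for KO pups and 1.31 ± 0.449 CPM for WT pups (SD, n = 4 each), a ratio of 8.36. The fitted log2 fold change was 3.09 (SE 0.36, 95% interval 2.298 to 3.88), with an edgeR adjusted p of 0.00292. Per kilobase of exon it was the least abundant of the 42 in WT pups, at 0.252 CPM per kb, and rose to 2.11 CPM per kb in KO pups, a level between those measured there for Rrm2b (2.14) and Chek1 (1.93).

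Zfp365 is also known from brain cells outside the endothelium, so markers of other cell types are given beside it. The 16 listed markers summed to 140 to 238 CPM in KO pups and 99.8 to 219 CPM in WT pups. Of the 13 tested, 10 were higher in KO, against 50.3% of all tested genes, and 0 were called. At an unadjusted p under 0.05, 4 were higher (Gfap, Aqp4, Slc1a2 and Aldh1l1, all astrocyte genes), against 5.52% of all tested genes. Gfap measured 31.3, 65.1, 17.8 and 41.5 CPM in KO pups 1 to 4 and 5.41 to 23.9 CPM in WT pups. The median log2 fold change of the 13 was 0.72, and their mean level was 2.64 ± 0.15 log2 CPM in KO and 2.03 ± 0.50 log2 CPM in WT (SD, n = 4 each, exact two-sided permutation p = 0.0571). Of the neuronal markers, Snap25 and Syt1 were named after their values were seen, and Rbfox3, Tubb3 and Stmn2 are not given by value. The low levels of Snap25 and Syt1 thus do not show how the neuronal markers moved as a set. Snap25 ran from 0 to 0.310 CPM in KO and from 0.0954 to 0.759 CPM in WT. Syt1 ran from 0 to 1.07 CPM in KO and from 0.143 to 0.985 CPM in WT. KO pup 1 was at 0 for both. With the mean marker level as a term in edgeR, chosen after seeing the data, Zfp365 measured 2.62 and was no longer called (adjusted p 0.102). That fit called 14 genes in all, and Ercc5 (0.65, adjusted p 0.112) and Slc2a1 (-0.82, adjusted p 0.134) also lost their calls in it. The 12 microglia and macrophage markers were all higher in KO by fold change, with 0 called. At an unadjusted p under 0.05, 3 were higher, against 5.52% of all tested genes. The 12 markers summed to 1081 to 2894 CPM in KO and 1029 to 1668 CPM in WT. Their part in the result was not tested.

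Ercc5 was the second gene to rise. It encodes XPG, the endonuclease that makes the incision downstream of the lesion in nucleotide excision repair. The gene (ENSMUSG00000026048; GRCm38 chromosome 1, 44147744 to 44181260, plus strand) measured 58.9, 70.4, 64.1 and 68.3 CPM in KO pups 1 to 4. WT pups 1, 2, 3 and 5 measured 39.3, 44.4, 43.5 and 40.6 CPM. Both groups were narrow, and the lowest KO pup stood clear of the highest WT pup. Ercc5 rose 1.56-fold, from 41.97 ± 2.38 to 65.4 ± 5.09 CPM (SD, n = 4 each). Its log2 fold change was 0.64 (SE 0.09, 95% interval 0.45 to 0.83; edgeR adjusted p 0.00637).

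Polk encodes DNA polymerase kappa, which copies past bulky adducts during translesion synthesis. The gene (ENSMUSG00000021668; GRCm38 chromosome 13, 96480690 to 96542579, minus strand) measured 62.8, 51.1, 50.1 and 46.9 CPM in KO pups 1 to 4 and 30.1, 44.0, 32.2 and 37.2 CPM in WT pups 1, 2, 3 and 5. The groups did not overlap, although KO pup 4 and WT pup 2 lay close together. The log2 fold change was 0.55 (SE 0.13, 95% interval 0.26 to 0.85), and Polk did not pass over all genes (edgeR adjusted p 0.134, unadjusted p 0.00169). DESeq2 called it (adjusted p 0.0137). None of Zfp365, Ercc5 and Polk shares exon sequence with another annotated gene.

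The calls of Zfp365 and Ercc5 did not survive a cage term. With cage by title, their log2 fold changes were 2.79 (adjusted p 0.335) and 0.69 (adjusted p 0.279). With cage by the second labels, the values were 2.68 (adjusted p 0.361) and 0.59 (adjusted p 0.403). In the KO pups' own cage by title, with WT pup 5 as its single WT pup, they were 2.79 (adjusted p 0.189) and 0.69 (adjusted p 0.238). In all 3 fits the genotype difference rests on 1 WT pup, which is assumed to vary like the remaining pups. The sizes changed little while the calls were lost, and genotype and cage cannot be told apart. Polk measured 0.50, 0.71 and 0.50 in the same fits without passing.

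**Figure D2:**
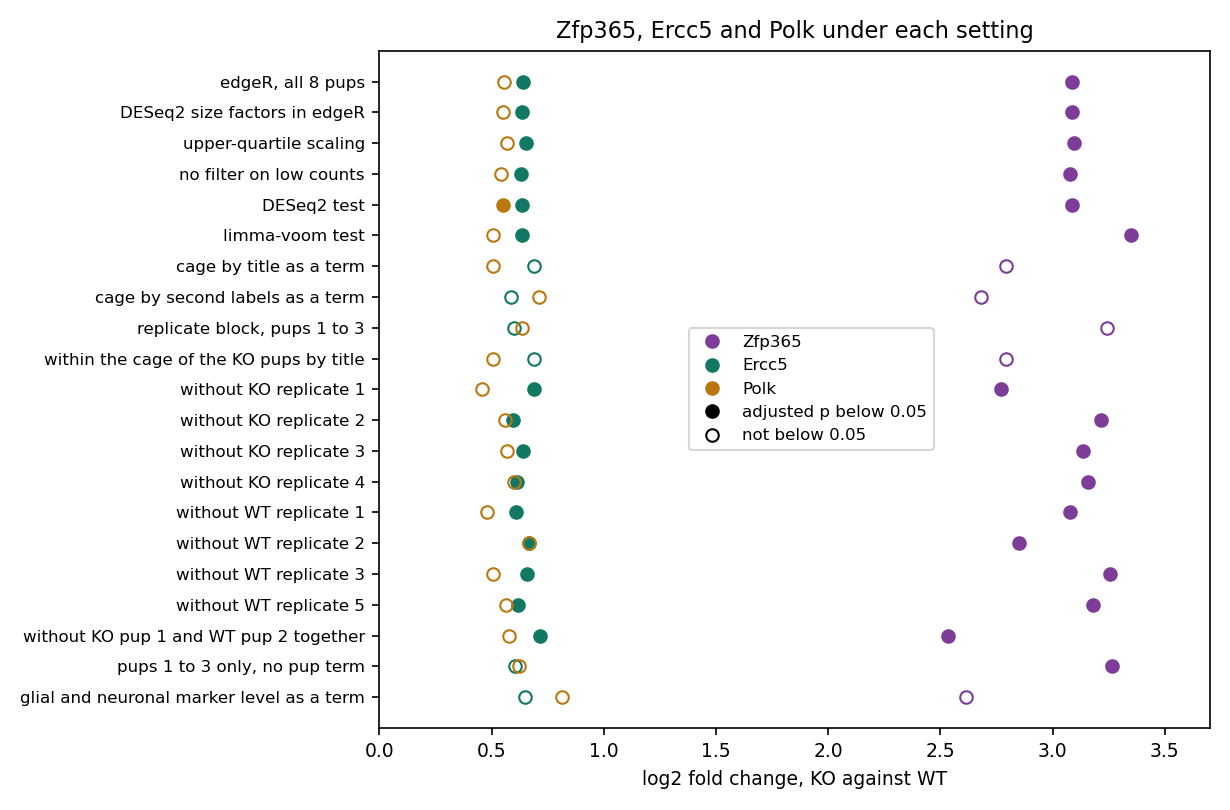
Log2 fold change of Zfp365, Ercc5 and Polk (horizontal axis) with all pups in edgeR and under 20 alternatives, with filled points where the adjusted p lies below 0.05. Zfp365 stays between 2.54 and 3.35 and Ercc5 between 0.59 and 0.72, while both points are open under the cage terms, the pup-number block and the marker term.

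The other 5 genes recorded as p53-inducible had overlapping groups and did not pass the test. Xpc, which recognises distorted DNA, measured 44.0, 39.5, 30.7 and 34.6 CPM in KO pups 1 to 4 and 31.3, 28.7, 35.1 and 39.6 CPM in WT pups 1, 2, 3 and 5 (log2 fold change 0.15, 95% interval -0.15 to 0.44). Its groups overlapped broadly. Ddb2, the damage-binding partner of Ddb1, measured 9.55, 5.43, 6.21 and 7.23 CPM against 6.96, 7.85, 8.30 and 4.41 CPM (0.04, interval -0.51 to 0.59). KO pup 1 and WT pup 5 were its highest and lowest pups, and Acp2 overlaps 23.8% of its exon sequence on the opposite strand. Polh, the polymerase eta gene that bypasses ultraviolet dimers, measured 23.4, 18.6, 16.96 and 16.5 CPM against 19.1, 16.6, 19.9 and 19.1 CPM (0.01, interval -0.29 to 0.32). Rrm2b, the p53-inducible small subunit of ribonucleotide reductase, measured 22.4, 19.4, 19.9 and 16.4 CPM against 19.0, 19.2, 21.2 and 20.7 CPM (-0.04, interval -0.31 to 0.23). Its S-phase counterpart Rrm2 measured -0.03. Fancc, of the Fanconi anaemia core complex, measured 18.9, 22.1, 22.6 and 20.6 CPM against 23.6, 23.6, 23.3 and 21.2 CPM (-0.12, interval -0.36 to 0.11). The intervals of Xpc, Polh, Rrm2b and Fancc each excluded a rise as large as the 0.64 measured for Ercc5 in the fit of all 8 pups. That of Ddb2 did so by a small margin, but Ddb2 measured 0.69 with cage by title (adjusted p 0.752) and in the KO pups' own cage (adjusted p 0.911), and -0.22 with the second cage labels (adjusted p 0.9995). These 5 had adjusted p values between 0.733 and 0.982 in edgeR.

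**Figure D3:**
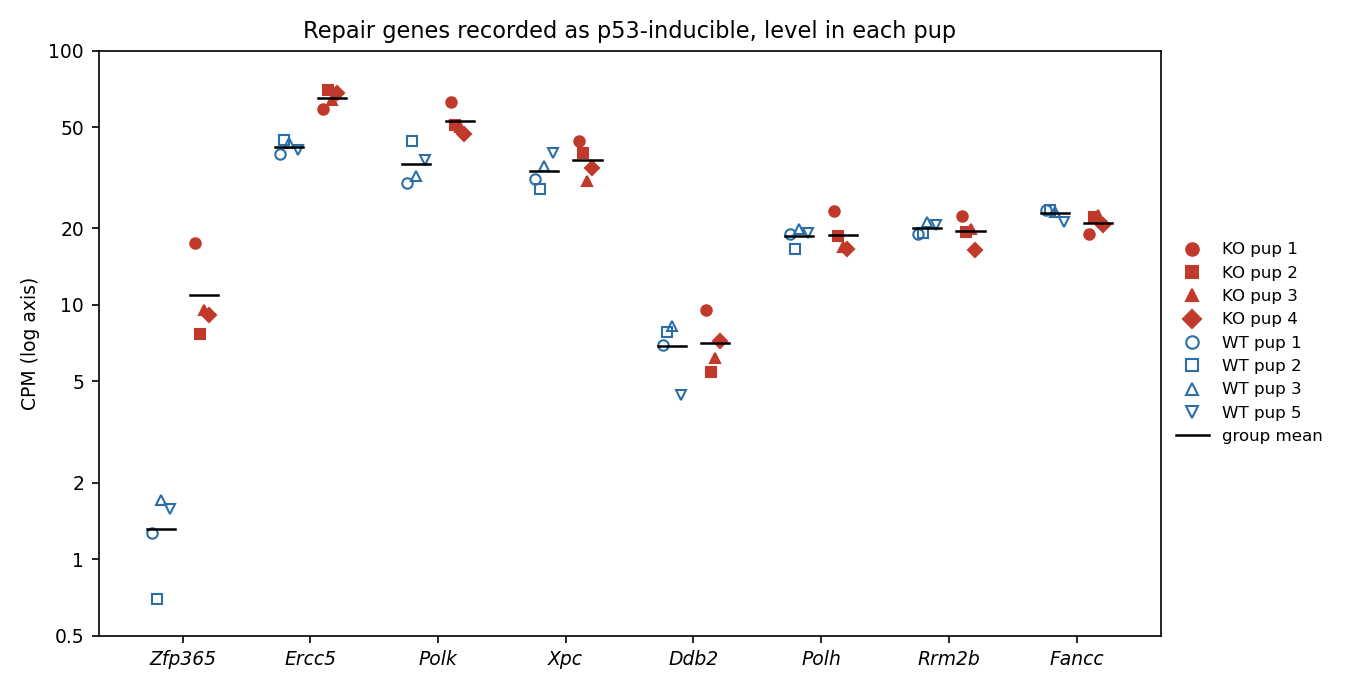
Level in CPM (log axis) of the 8 repair genes recorded as p53-inducible, with 1 point per pup, WT open and KO filled, and a bar at each group mean. Zfp365, Ercc5 and Polk have all KO pups above all WT pups, as do 3.77% of all tested genes (7.19% are apart in either direction). The groups of the other 5 genes overlap.

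Beside these, 11 of 21 listed p53 targets outside repair rose and 0 fell, against 0.276% and 0.113% of all tested genes. That list was drawn up with its rise in these libraries already known and is no independent evidence. Its median log2 fold change was 0.68. Medians were 0.09 for the 8 repair genes recorded as p53-inducible and -0.04 for the remaining 34 members. Because the list was drawn up this way, the gap between these medians was partly fixed in advance. Cdkn1a, the gene of the cyclin-dependent kinase inhibitor p21, measured 392.1, 488, 437 and 454 CPM in KO pups 1 to 4 and 245, 308, 225 and 285 CPM in WT pups 1, 2, 3 and 5. Ccng1 (cyclin G1) measured 1.53 on the log2 scale. Mdm2, which encodes the ubiquitin ligase of p53, measured 0.43 and missed the threshold (adjusted p 0.0997), with no overlap between groups. Trp53 itself was at 136 ± 4.56 CPM in KO pups and 143 ± 8.26 CPM in WT (-0.07). Under the alternatives, between 4 and 13 of the 21 were called, with 4 under either cage term.

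**Figure D4:**
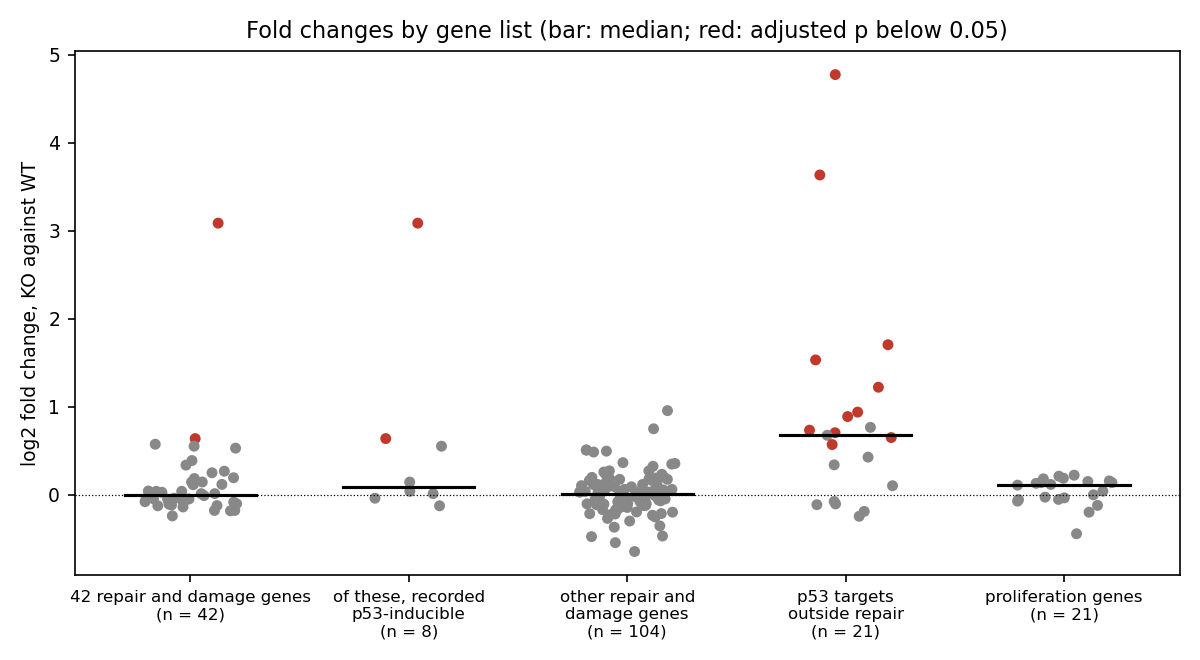
Log2 fold change, KO against WT (vertical axis), of each gene in 5 lists, with a bar at the median and genes with an adjusted p below 0.05 in red. The median is 0.004 for the 42 genes, 0.09 for the 8 recorded as p53-inducible, 0.01 for the other 104 repair genes and 0.68 for the p53 targets outside repair. The list of p53 targets was drawn up with its rise in these libraries already known.

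In nucleotide excision repair, Ercc5 was the single called gene of 10. The endonuclease of the opposite incision is formed by Ercc1 and Ercc4 (XPF). Ercc1 measured 14.5, 13.1, 14.6 and 15.5 CPM in KO pups 1 to 4 and 17.4, 15.01, 19.1 and 16.7 CPM in WT pups 1, 2, 3 and 5, so KO pup 4 alone overlapped the WT range (log2 fold change -0.24, interval -0.51 to 0.04, adjusted p 0.533). Ercc4 stood at 33.9 ± 1.90 CPM in KO pups and 32.9 ± 2.57 CPM in WT (0.04). Xpa, which verifies the lesion, was at 0.20 (SE 0.16) and the TFIIH helicases Ercc2 and Ercc3 at -0.14 and 0.12. Ddb1, an adaptor of ubiquitin ligases, was the most abundant of the 42, at 437 ± 16.3 CPM in KO pups and 462 ± 34.4 CPM in WT (-0.08). Ercc6 (CSB), which starts repair in transcribed genes, measured -0.08 with pups between 30.1 and 46.5 CPM.

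The damage kinases and their mediators gave 0 calls of 7. Atr, the kinase of stalled forks, measured 50.2, 39.4, 35.5 and 37.1 CPM in KO pups 1 to 4 and 35.8, 34.2, 32.0 and 26.0 CPM in WT pups 1, 2, 3 and 5. The groups overlapped at KO pup 3 and WT pup 1, and the log2 fold change of 0.34 did not pass over all genes (unadjusted p 0.0291, adjusted p 0.37). Without KO pup 1 it was 0.22 (adjusted p 0.515). Chek1, the checkpoint kinase downstream of ATR, measured 15.5, 4.81, 7.60 and 7.90 CPM against 8.01, 6.36, 5.91 and 3.59 CPM. Its log2 fold change of 0.58 (SE 0.35) rested on KO pup 1, and without that pup it was 0.18 (adjusted p 0.856). Atm, the kinase of double-strand breaks, stood at -0.11 and Chek2 at -0.05. Mdc1 and Trp53bp1, which gather repair factors on marked chromatin, measured -0.05 and 0.03. H2afx, the histone variant phosphorylated at breaks, stood at 38.3 ± 6.96 CPM in KO pups and 43.3 ± 5.81 CPM in WT (-0.18).

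Genes of break sensing, recombination and crosslink repair gave 0 calls of 10. Mre11a, Rad50 and Nbn, which form the complex that binds broken ends, measured -0.09, -0.05 and -0.10, with all 3 intervals within 0.5 of zero. Fancd2, which is attached to ubiquitin at crosslinks together with Fanci, measured 15.7, 8.58, 11.2 and 9.24 CPM in KO pups 1 to 4 and 7.89, 7.96, 9.0003 and 5.99 CPM in WT pups 1, 2, 3 and 5. KO pup 2 lay within the WT range, and the log2 fold change of 0.53 (SE 0.22) had an adjusted p of 0.393. Without KO pup 1 it was 0.32 (adjusted p 0.538). Fanci measured 14.3, 3.90, 6.13 and 5.80 CPM against 7.75, 5.61, 6.91 and 2.56 CPM. Its value of 0.39 (SE 0.42) became -0.12 without KO pup 1. The recombination genes Brca1, Brca2 and Palb2 measured -0.18, 0.25 and 0.19, and Fanca measured -0.10. Brca1 had the opposite pattern to Fanci in KO pup 1, with 5.71 CPM as the lowest of the 8 pups.

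Base excision, mismatch and end-joining genes gave 0 calls of 11. Parp1, the sensor of nicks, measured 68.3, 73.9, 79.2 and 74.9 CPM in KO pups 1 to 4 and 97.0, 77.0, 84.5 and 77.2 CPM in WT pups 1, 2, 3 and 5. KO pup 3 alone overlapped the WT range (log2 fold change -0.18, interval -0.38 to 0.02, adjusted p 0.521). Msh6 of the mismatch sensor measured 0.12 and Apex1, the abasic endonuclease, -0.12, although Pip4p1 overlaps 61.7% of the exon sequence of Apex1 on the opposite strand. The glycosylases Ung and Ogg1 stood at -0.04 and 0.15, with SE 0.29 and 0.20. Xrcc1, the scaffold of nick repair, and Lig1 stood at 0.01 and -0.04. In end joining, the Ku subunits Xrcc5 and Xrcc6 measured -0.05 and 0.04, the kinase Prkdc -0.01 and the ligase Lig4 0.27 (SE 0.20). Lig4 was higher in KO by mean, 6.77 ± 0.785 against 5.62 ± 0.859 CPM, with overlapping groups.

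Levels among the 42 spanned a wide range in WT endothelium. Per kilobase of exon, Ddb1 (72.2 ± 5.37 CPM per kb), H2afx (31.3 ± 4.20), Ercc3 (19.5 ± 1.22), Parp1 (15.9 ± 1.77) and Apex1 (15.9 ± 1.94) led the order (SD, n = 4). Parp1 and Apex1 could not be ranked against each other. At the low end, above Zfp365, stood Palb2 (0.752 ± 0.0718), Fanca (0.901 ± 0.179), Ung (0.946 ± 0.117) and Fancd2 (0.972 ± 0.158). From Palb2 to Fancd2, neighbours in this order did not differ beyond their spread. In 7 of 41 neighbouring pairs the ranges of mean ± SD did not touch. The median of the 42 was 3.74 CPM per kb, against 5.32 over all tested genes with a length, and their median coefficient of variation between WT pups was 12.3%, against 13% over all tested genes. The widest spread in WT pups was that of Fanci (39.9%) and the narrowest that of Rad50 (3.89%).

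Extreme levels were unevenly spread over the pups. KO pup 1 was the highest of the 8 pups for 18 of the 42 genes, against 22.1% of all tested genes, and the lowest for 7, against 27.6%. WT pup 5 was the lowest for 16 of the 42, against 13% of all tested genes, and the highest for 0, against 12.2%. The 16 were Ddb2, Xpa, Ercc6, Atr, Chek1, Chek2, Trp53bp1, Fanca, Fancd2, Fanci, Lig1, Msh6, Xrcc5, Xrcc6, Prkdc and Lig4, from 5 of the 7 roles. WT pup 5 also had the lowest mean level of the 21 proliferation genes, 4.74 log2 CPM against 5.03 to 5.26 in the other WT pups and 4.83 to 5.32 in KO pups. The genotype means of the proliferation list were 5.05 ± 0.24 in KO and 5.06 ± 0.24 log2 CPM in WT (SD, n = 4 each), and 0 of its 21 genes were called by edgeR or had an unadjusted p under 0.05. The fits that include a cage by title compare the KO pups with WT pup 5, and there Chek1, Fancd2 and Fanci measured 1.32, 0.90 and 1.55 without passing. With group means removed, 4 of the 42 genes correlated above 0.8 with the proliferation level over the 8 pups, against 1.62% of all tested genes. Among the 16 genes lowest in WT pup 5, this correlation ran from -0.28 (Xpa) to 0.85 (Lig1). The part of proliferation and of library quality in the levels and fold changes above was not tested.

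**Figure D5:**
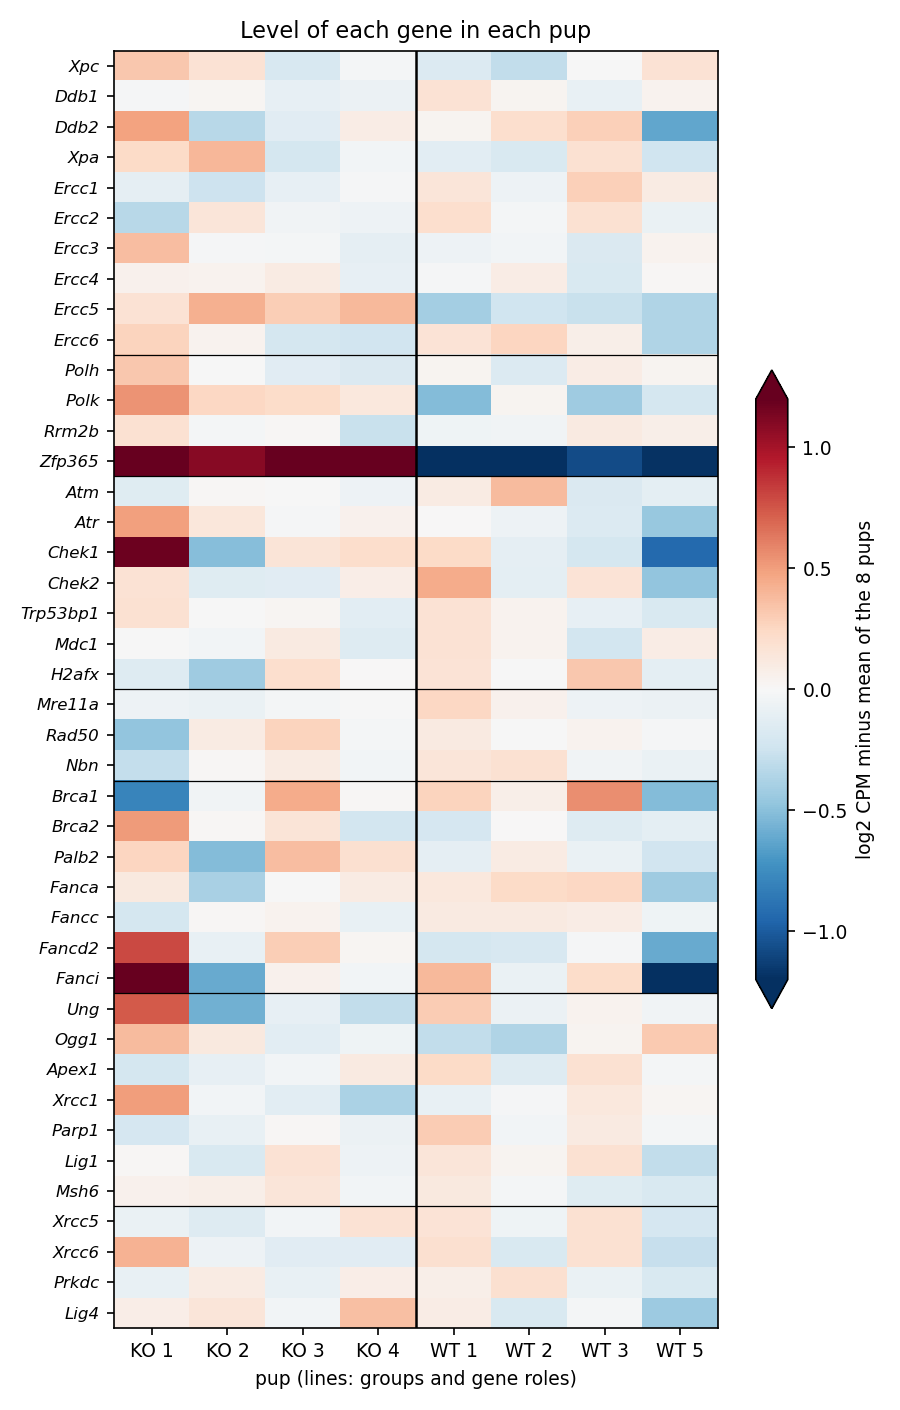
Heat map of log2 CPM minus the mean of the 8 pups, with genes in rows by role and pups in columns, the colour scale ending at 1.2 in either direction. Zfp365, Ercc5 and Polk split by genotype, as do 7.19% of all tested genes in either direction. KO pup 1 is highest for 18 genes and WT pup 5 is lowest for 16.

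Of 104 further repair and damage signalling genes, 0 were called by edgeR or limma-voom, and DESeq2 called 1, Blm (adjusted p 0.044). At an unadjusted p under 0.05 in edgeR, 6 were higher and 2 lower, against 5.52% and 5.61% of all tested genes. The median log2 fold change of the 104 was 0.01. For 3 of them the KO pups lay above the WT pups (Blm, Fan1 and Aptx), against 3.77% of all tested genes. For 2 the KO pups lay below (Fancg and Ube2t), against 3.43%. Neither share of the 104 exceeded that of all tested genes. Blm, the helicase that resolves recombination intermediates, measured 15.9, 13.6, 12.8 and 14.7 CPM in KO pups 1 to 4 and 10.8, 10.2, 9.65 and 9.30 CPM in WT pups 1, 2, 3 and 5 (log2 fold change 0.51, edgeR adjusted p 0.174). Fan1, a nuclease of crosslink repair, measured 0.37 (adjusted p 0.318). Aptx, which removes adenylate from stalled ligations, measured 0.51 (adjusted p 0.242), and Nthl1, a glycosylase of oxidised bases, 0.75 (adjusted p 0.469). Mgmt, the methylguanine methyltransferase, measured 0.96 (SE 0.31, adjusted p 0.263) and Rad18, a ligase of the damage tolerance pathway, 0.49 (adjusted p 0.275). Among signalling genes, the phosphatases Cdc25a and Ppm1d, the latter a feedback target of p53, measured -0.22 and 0.16. In nucleotide excision, Xab2 and the TFIIH subunit Gtf2h1 measured 0.24 and 0.19, and in end joining Xrcc4 and Polq measured 0.33 and -0.27.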

How the data were processed

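Per the labels' protocols, RNA of sorted cells was made into stranded poly(A) libraries and sequenced as single-end reads of 100 bp. The authors deposited whole-number counts per gene, 1 table per library, per the file headers and the values. STAR, featureCounts and build GRCm38 are named in the submitters' processing notes. Versions, annotation and strand setting of that step: not given in the sources used here. For 16 of the 42 members, exons overlap those of a counted gene on the opposite strand, and reads from the pair may not be separable. Symbols, coordinates and exon lengths came from GENCODE M21 (GRCm38), and promoter windows from RefSeq.

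The model used R 4.3.3 and edgeR 4.0.16, with filterByExpr by genotype (14154 genes), TMM scaling, genotype as the only term, quasi-likelihood F test, and Benjamini-Hochberg adjustment over all tested genes at 0.05. Standard errors were derived from each F statistic. CPM used the TMM library sizes. Single values were compared by a two-sided exact permutation test over 70 assignments, whose smallest p is 0.0286. A count of 0 allows 3 counts, or 0.0269 to 0.144 CPM, for counting error only. Members and lists were chosen with earlier results of these data known. All members were accounted for, and values in every pup were given for called and p53-inducible members, then for those of smallest p in each role. Of the other lists, called genes and those of smallest p were named, and Fancg, Ube2t, Rrm2 and the astrocyte and neuronal markers were named after their values were seen. The fit was tested on simulated data, with changes set only in genes above a minimum level. It called 85% of 100 genes set to differ 2-fold and 44% of 100 genes set to differ 1.5-fold. Of 13745 unchanged genes, 0.08% were called. DESeq2 1.42.0, limma 3.58.1 and the other alternatives are described with the limits. Replicates were checked for duplication, and every pair of libraries differed by far more than sampling noise (chi-square per gene 13.9 or above).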

Additional observations from a re-analysis of the deposited data

Results flagged for a closer look

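In groups of 4 pups, 3 of the 84 sets of member levels held a pup whose gap to its nearest neighbour passed Dixon's 95% critical value, where chance gives about 1 in 20. Ercc3 measured 74.1 CPM in KO pup 1 and 53.3 to 56.7 CPM in the other KO pups. Xrcc6 measured 19.9 CPM in KO pup 1 and 13.5 to 14.2 CPM in the other KO pups. Fancc measured 21.2 CPM in WT pup 5 and 23.3 to 23.6 CPM in the other WT pups. KO pup 1 is the library with the fewest detected genes.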

How the results depend on the processing

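Of 20 alternatives, 18 were planned and 2 were chosen after seeing the data. Ercc5 was called in 14 and Zfp365 in 15, each with the same sign in all 20, and no member was called lower in any. With all libraries, edgeR called 39 genes higher and 16 lower, 2 of the higher ones members. DESeq2 called 165 higher and 174 lower, among them 3 members and 1 further repair gene, and with no filter on low counts 46 were higher and 38 lower. The cage term by title left 10 higher and 6 lower, and 0 members. The second cage labels left 10 higher, 0 lower and 0 members. In the KO pups' own cage by title, 10 were higher and 12 lower, with 0 members. Without KO pup 1 and WT pup 2 together, 50 were higher and 26 lower. With the glial and neuronal marker level as a term, 14 were higher, 0 lower and 0 members. Leaving out 1 pup gave 25 to 60 higher and 6 to 27 lower genes over all genes, with 60 higher and 25 lower without KO pup 1, 25 higher without KO pup 2, 6 lower without KO pup 3 and 27 lower without WT pup 3, while 2 members stayed higher each time. Slc2a1 ran from -1.14 to -0.91 without 1 pup. It was not called under the second cage labels (-0.89, adjusted p 0.331), with the pup-number block (-0.91, adjusted p 0.0644), over pups 1 to 3 without it (-0.93, adjusted p 0.0524) or with the marker term (-0.82, adjusted p 0.134).

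Pup numbers 1 to 3, by title, occur in both groups but name different animals. Deviations of same-numbered pups from their group means correlated at -0.029, 0.026 and -0.071 across genes, so the numbers do not pair them. The replicate block over these 6 pups called 11 genes higher, 0 lower and 0 members. Over the same pups without the block, 18 were higher and 5 lower, with 1 member, Zfp365. The causes of these changes were not tested beyond the smaller number of pups. With 4 pups per group, 38 of the 42 members had a 95% interval within 1 of zero and 25 within 0.5, which limits the changes that can be seen.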
